A study of Mus musculus with 8 samples.

Results

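Cyp2c genes encode the mouse CYP2C cytochrome P450 enzymes, and 10 of them were followed here: Cyp2c29, Cyp2c37, Cyp2c38, Cyp2c39, Cyp2c40, Cyp2c44, Cyp2c50, Cyp2c54, Cyp2c68 and Cyp2c69. They were chosen by name from the genes of the subfamily whose Ensembl identifiers are in the expression table, and make up 10 of its 14317 mouse genes. Of the 12 subfamily genes in the table, Cyp2c70 was set apart because it is known as a bile acid enzyme, and Cyp2c67 is described only as a close copy of some of the 10. Cyp2c44 carries the symbol Cyp2c23 in newer annotations and was matched through its RefSeq synonyms.

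The libraries came from livers of female mice fed a Western diet (WD) rich in fat, fructose and cholesterol for 8.5 weeks. At 7 weeks of age, 4 mice (Con-Veh) received an empty silastic pellet and 4 mice (Con-DHT) received one holding 10 mm of dihydrotestosterone (DHT), a non-aromatisable androgen. The labels give the genotype as WT, and the study's methods describe these control mice as carrying a floxed androgen receptor gene without Cre, so both groups kept the receptor and their ovaries. Each library was made from total liver RNA of 1 mouse with added spike-in transcripts, and the question addressed was what chronic DHT did to hepatic expression on this diet.

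CYP2C enzymes sit in the endoplasmic reticulum, where they take electrons from P450 oxidoreductase and oxidise drugs, steroids, retinoids and polyunsaturated fatty acids. On arachidonic acid they act as epoxygenases, giving epoxyeicosatrienoic acids, and as hydroxylases. In mouse liver several Cyp2c genes are induced by drugs through the nuclear receptor CAR, and several are expressed at different levels in males and females under the control of the growth hormone pattern and STAT5B. The genes lie together on chromosome 19 and have arisen by repeated duplication, except that Cyp2c44 lies apart from the cluster.

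Expression was given as normalised read counts, that is, reads on a gene divided by the library's size factor, so 1 unit was close to 1 read. The 8 libraries held from 13123962 to 17815944 reads on mouse genes, and 3 reads, the most that a count of 0 would allow, corresponded to 2.61 to 3.30 normalised reads. No Cyp2c gene approached this floor, the lowest being Cyp2c39 at 19 reads. Across the whole data set, 14312 genes were tested with limma on log2(value + 1), and a gene was called at a Benjamini-Hochberg adjusted p of at most 0.05. These p-values measure the spread between the 4 mice of each group. In whole liver RNA, fewer cells of a type and less RNA per cell cannot be told apart.

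Con-DHT livers had lower levels of most Cyp2c genes. Of the 10 genes, 7 fell (Cyp2c29, Cyp2c37, Cyp2c39, Cyp2c40, Cyp2c44, Cyp2c68 and Cyp2c69) and 0 rose, where 2.61% of all tested genes were called lower, 4.6% were called higher and 7.21% were called in either direction. For 6 of the 10 genes every Con-DHT liver lay below every Con-Veh liver, a separation in that direction seen for 6.62% of all tested genes, and in either direction for 15.1%. The edgeR test on the recovered reads also called 7 genes lower and 0 higher, against 2.46% lower, 4.7% higher and 7.15% in either direction over all genes. DESeq2 likewise called 7 lower and 0 higher, against 4.51%, 6.45% and 11% over all genes. With libraries scaled to the spike-ins, limma called 4 of the 10 lower (Cyp2c39, Cyp2c40, Cyp2c68 and Cyp2c69) and 0 higher. Over all genes that fit called 75 lower and 562 higher. Its adjusted p for the Cyp2c genes followed the size of the fold change. For Cyp2c69 it was 1.2e-48, against 0.00203 with the deposited scaling. These calls therefore rest on fold-change size, not on each gene's own spread between mice. The median log2 fold change (Con-DHT minus Con-Veh) was -1.08 over the 10 genes and -0.0081 over all tested genes. Cyp2c67, a subfamily gene in the table but outside the 10, was called higher (0.75, limma adjusted p = 0.0224). The counts and the median above leave it out. Cyp2c38, Cyp2c50 and Cyp2c54 did not pass the test. The changes of the 10 ranged from -4.67 for Cyp2c69 to 0.14 for Cyp2c54, so close relatives within the cluster moved very differently.

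**Figure D1:**
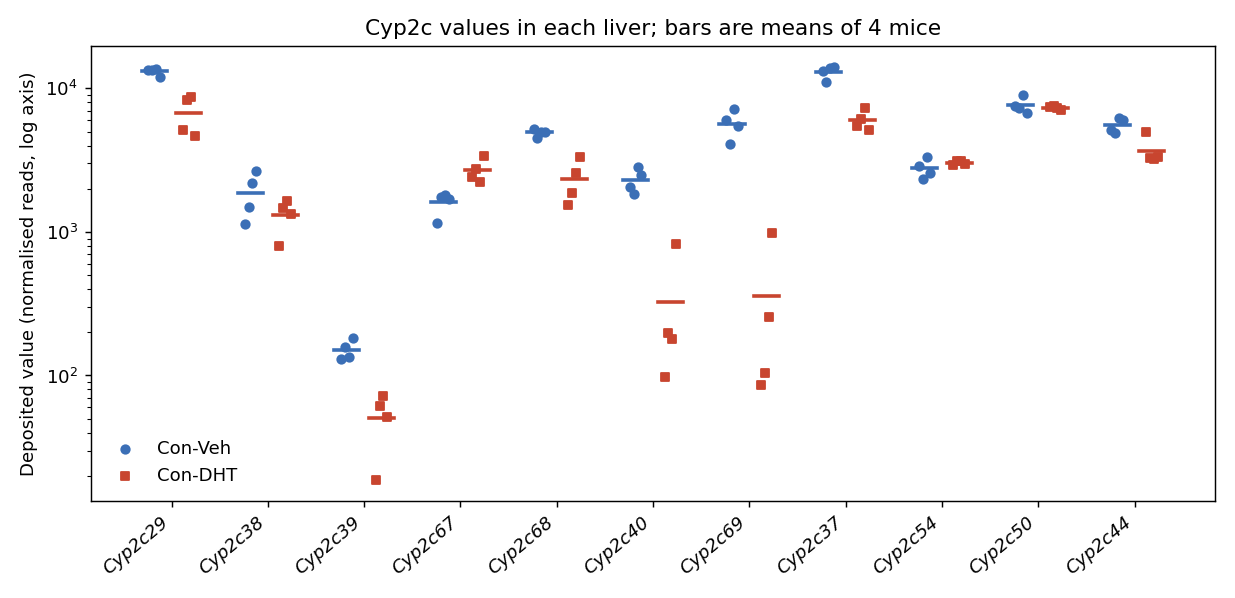
Normalised read count (log axis) of each Cyp2c gene and of Cyp2c67 in the 4 Con-Veh livers (circles) and the 4 Con-DHT livers (squares), with bars at the means. Con-DHT points lie below all Con-Veh points for Cyp2c29, Cyp2c37, Cyp2c39, Cyp2c40, Cyp2c68 and Cyp2c69, overlap them for Cyp2c38, Cyp2c44, Cyp2c50 and Cyp2c54, and lie above them for Cyp2c67.

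Cyp2c40, Cyp2c67, Cyp2c68 and Cyp2c69 are close copies, with proteins 88.7% to 95.2% identical, that stand next to each other on the minus strand, and they hold both the steepest decreases and the only increase called in the subfamily. Their promoters are shown for that reason. These are 300 bases from 250 before to 50 after the annotated start, 5′ to 3′, taken from RefSeq (GRCm38.p6), a build that differs from the GRCm39 of the submitters' processing notes. The capitals mark CAAAGTCCA, a binding motif of the hepatocyte factor HNF4A.
Cyp2c40 promoter, chr19:39812765-39813064, minus strand: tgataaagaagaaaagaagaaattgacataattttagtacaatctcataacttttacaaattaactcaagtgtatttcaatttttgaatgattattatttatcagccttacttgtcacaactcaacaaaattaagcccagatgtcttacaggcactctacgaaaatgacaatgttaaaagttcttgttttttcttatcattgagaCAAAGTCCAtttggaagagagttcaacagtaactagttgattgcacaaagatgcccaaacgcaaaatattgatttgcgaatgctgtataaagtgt
Cyp2c69 promoter, chr19:39886720-39887019, minus strand: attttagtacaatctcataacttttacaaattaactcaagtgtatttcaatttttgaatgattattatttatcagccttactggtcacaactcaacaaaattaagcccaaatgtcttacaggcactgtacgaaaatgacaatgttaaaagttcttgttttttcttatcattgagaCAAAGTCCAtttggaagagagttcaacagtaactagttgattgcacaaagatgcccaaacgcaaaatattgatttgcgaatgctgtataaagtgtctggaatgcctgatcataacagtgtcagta
Cyp2c68 promoter, chr19:39741052-39741351, minus strand: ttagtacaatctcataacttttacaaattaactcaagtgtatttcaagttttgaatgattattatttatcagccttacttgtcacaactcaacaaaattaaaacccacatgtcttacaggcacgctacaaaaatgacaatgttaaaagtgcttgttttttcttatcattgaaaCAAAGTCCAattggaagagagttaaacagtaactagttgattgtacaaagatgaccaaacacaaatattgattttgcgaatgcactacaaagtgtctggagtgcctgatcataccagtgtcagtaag
Cyp2c67 promoter, chr19:39648993-39649292, minus strand: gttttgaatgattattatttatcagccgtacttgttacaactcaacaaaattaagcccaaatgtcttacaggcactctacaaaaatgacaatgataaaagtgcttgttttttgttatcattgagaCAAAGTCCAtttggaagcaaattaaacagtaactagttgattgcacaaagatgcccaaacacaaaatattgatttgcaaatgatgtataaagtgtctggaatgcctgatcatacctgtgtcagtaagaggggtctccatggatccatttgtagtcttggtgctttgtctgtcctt

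The motif CAAAGTCCA was searched on both strands and began at position -45 from the annotated start in Cyp2c40, -75 in Cyp2c69, -77 in Cyp2c68 and -125 in Cyp2c67. It was also present in Cyp2c70, at position -64, and in no other promoter of the subfamily, among the 10 of 12 genes with an entry (Cyp2c54 and Cyp2c44 had none). It occurs in 0.475% of 32851 mouse promoters of this length. The positions depend on where each start is annotated and are not compared between genes. In Cyp2c40, Cyp2c69 and Cyp2c67 the same stretch, tgtataaagtgt, follows the motif. It lies before the annotated start in Cyp2c67 and after it in Cyp2c40 and Cyp2c69. Where they aligned, the Cyp2c40 and Cyp2c69 promoters were 98.9% identical over 270 bases, and the Cyp2c67 promoter was 91.6% to 93.2% identical to the other three. Thus the gene that rose and the genes that fell shared this motif and most of their proximal sequence. The STAT motif TTCNNNGAA, present in 8.30% of all promoters, had no match in the subfamily, nor had the nuclear receptor direct repeat (0.0152%). A match describes letters only.

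Cyp2c69, known as a female-predominant gene of mouse liver, changed most. Its normalised read counts were 6038, 4118, 7142 and 5429 in Con-Veh and 85.4, 105, 254 and 987 in Con-DHT. All Con-DHT livers lay below all Con-Veh livers, and the Con-DHT livers themselves spanned a wide range, with replicate 4 far above replicates 1 and 2. Con-Veh livers averaged 5682 ± 1261 and Con-DHT livers 358 ± 426 (SD, n = 4). On the log2 scale this was -4.67 (SE 0.63, 95% interval -6.07 to -3.27, limma adjusted p = 0.00203). The ratio of the arithmetic means was 15.9, smaller than the 25.5-fold decrease on the log scale, since the highest Con-DHT liver weighs more in an arithmetic mean, and edgeR and DESeq2, which compare such means, both gave a log2 fold change of -3.99. Without Con-DHT replicate 4 the log2 fold change was -5.39 (limma adjusted p = 0.000124).

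Cyp2c40, an arachidonic acid hydroxylase with female-predominant expression, fell in the same livers. It read 2047, 1828, 2852 and 2497 in Con-Veh and 97.1, 196, 180 and 830 in Con-DHT, so that the groups did not overlap and replicate 4 was again the highest treated liver. Con-Veh livers averaged 2306 ± 458 and Con-DHT livers 326 ± 339 (SD, n = 4). The log2 change was -3.29 (SE 0.52, 95% interval -4.44 to -2.14, limma adjusted p = 0.00473). Without Con-DHT replicate 4 it was -3.90 (limma adjusted p = 0.000124).

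Cyp2c68, a less studied member, fell by a smaller amount. The 4 Con-Veh livers were tightly grouped at 5232, 4523, 4980 and 5004, and the Con-DHT livers read 1530, 1882, 2584 and 3345. The groups did not overlap, and replicate 4 was once more the highest Con-DHT liver. Con-Veh livers averaged 4935 ± 297 and Con-DHT livers 2335 ± 803 (SD, n = 4). This amounted on the log2 scale to -1.14 (SE 0.20, 95% interval -1.59 to -0.69, limma adjusted p = 0.00866).

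Cyp2c67, the neighbour of Cyp2c68 and not among the 10 genes, rose. It read 1163, 1760, 1803 and 1709 in Con-Veh and 2413, 2734, 2227 and 3405 in Con-DHT, with every Con-DHT liver above every Con-Veh liver. The log2 fold change was 0.75 (SE 0.16, 95% interval 0.38 to 1.11, limma adjusted p = 0.0224). The call was lost without Con-DHT replicate 2 (limma adjusted p = 0.0598) and without the variance trend (adjusted p = 0.0557). As a share of the summed counts of the 4 copies, Cyp2c67 went from 11.2% ± 2.62 to 49.1% ± 9.35 (SD, n = 4), whereas Cyp2c69 went from 38.8% ± 4.16 to 5.14% ± 4.45. The summed count of the 4 copies went from 14531 ± 1858 to 5714 ± 1959, and each Con-DHT sum (4125, 4917, 5245 and 8567) lay below each Con-Veh sum (12230 to 16777).

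Reads can be hard to assign among such copies. The proteins translated from the longest coding transcripts were 95.2% identical between Cyp2c40 and Cyp2c69 and 95.1% between Cyp2c67 and Cyp2c68. Of the 150-base windows of each transcript, 29.1% in Cyp2c40, 22.5% in Cyp2c69 and 8.83% in Cyp2c68, with Cyp2c67 between the last 2, occurred unchanged in another gene's transcript, so counts in these 4 genes carry that uncertainty. The study's methods state that reads were counted only where they mapped uniquely. The part of read assignment, or of reads left uncounted, in the differences between these 4 genes was not tested. The log2 ratio of Cyp2c67 to Cyp2c69 was -2.38, -1.23, -1.99 and -1.67 in Con-Veh and 4.81, 4.70, 3.13 and 1.79 in Con-DHT, which means that Cyp2c69 exceeded Cyp2c67 in every Con-Veh liver and the reverse held in every Con-DHT liver. The ratio changed by 5.42 on the log2 scale (exact two-sided permutation p = 0.0286), and by 6.02 without Con-DHT replicate 4. The ratio of Cyp2c67 to Cyp2c68 changed by 1.89 and that of Cyp2c40 to Cyp2c68 by -2.15, and Cyp2c40 to Cyp2c69 by 1.38, Cyp2c40 having fallen less than its closest copy.

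These ratios belong to a family of 9 pairs with at least 90% protein identity, compared after the values had been seen. The groups did not overlap for 9 of the 9 pairs, and each exact permutation p was 0.0286 before and after Benjamini-Hochberg adjustment, the smallest value that 4 mice against 4 allow. Apart from the pseudocount of 1, a ratio within a library does not depend on how libraries were scaled to each other.

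The second set of copies is Cyp2c37, Cyp2c50 and Cyp2c54, epoxygenases and hydroxylases of arachidonic acid whose proteins were 91.2% to 94.5% identical. The promoters of Cyp2c37 and Cyp2c50 hold none of the motifs searched. They are shown because these genes responded differently although the promoters were 90.1% identical over 292 aligned bases (RefSeq, GRCm38.p6, 300 bases, no capitals).
Cyp2c37 promoter, chr19:39992174-39992473, plus strand: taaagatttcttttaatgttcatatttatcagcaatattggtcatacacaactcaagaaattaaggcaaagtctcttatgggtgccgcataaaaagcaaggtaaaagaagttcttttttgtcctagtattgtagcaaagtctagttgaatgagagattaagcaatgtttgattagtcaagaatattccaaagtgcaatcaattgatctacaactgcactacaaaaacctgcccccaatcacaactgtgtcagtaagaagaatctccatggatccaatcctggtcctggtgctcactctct
Cyp2c50 promoter, chr19:40089429-40089728, plus strand: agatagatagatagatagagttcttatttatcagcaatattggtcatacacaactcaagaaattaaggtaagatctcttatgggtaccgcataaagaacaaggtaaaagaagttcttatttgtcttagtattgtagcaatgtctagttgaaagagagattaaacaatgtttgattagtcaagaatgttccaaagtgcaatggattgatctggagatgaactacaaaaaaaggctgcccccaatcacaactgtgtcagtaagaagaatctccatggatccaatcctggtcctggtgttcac

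Cyp2c37, which is inducible by CAR activators, read 13145, 11059, 13860 and 14187 in Con-Veh and 5495, 6091, 7280 and 5132 in Con-DHT. The groups did not overlap and both were compact. Con-Veh livers averaged 13063 ± 1405 and Con-DHT livers 5999 ± 941 (SD, n = 4). In log2 terms the change was -1.13 (SE 0.12, 95% interval -1.404 to -0.85, limma adjusted p = 0.000764), the smallest adjusted p among the 10 genes. Scaled to the spike-ins, it was -0.93 with a limma adjusted p of 0.0532, in the fit where p followed the size of the change.

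Cyp2c50 read 7579, 7286, 8934 and 6703 in Con-Veh and 7463, 7488, 7303 and 7114 in Con-DHT. The Con-DHT livers lay within the Con-Veh range. The means were 7625 ± 945 and 7342 ± 173 (SD, n = 4), which differed on the log2 scale by -0.05 (SE 0.09, 95% interval -0.25 to 0.16, limma adjusted p = 0.813), so the interval leaves out a 2.19-fold decrease like that of Cyp2c37. The sign of this small difference was positive after scaling to the spike-ins, after scaling to totals without the Mup genes, and without Con-Veh replicate 3.

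Cyp2c54, the remaining copy, read 2859, 2323, 3317 and 2577 in Con-Veh and 2931, 3099, 3119 and 2986 in Con-DHT. The groups overlapped and the Con-DHT livers were again the less variable (means 2769 ± 426 and 3034 ± 89.8, SD, n = 4). The log2 fold change was 0.14 (SE 0.10, 95% interval -0.08 to 0.37, limma adjusted p = 0.446).

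Within each library, Cyp2c37 exceeded Cyp2c50 in every Con-Veh liver, with log2 ratios of 0.79, 0.60, 0.63 and 1.08. In Con-DHT the ratios were -0.44, -0.30, -0.0046 and -0.47, so Cyp2c37 lay below Cyp2c50 in replicates 1, 2 and 4. In replicate 3 these genes were nearly equal (7280 and 7303). The ratio changed by -1.08 (exact two-sided permutation p = 0.0286), and that of Cyp2c37 to Cyp2c54 by -1.27. The ratio of Cyp2c50 to Cyp2c54 changed by only -0.19, although the groups did not overlap. Shared windows were few in this set, at 3.25% for Cyp2c50, 2.99% for Cyp2c54 and 0.299% for Cyp2c37.

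Cyp2c29, Cyp2c38 and Cyp2c39 form the third set, lying at the other end of the cluster, with proteins of Cyp2c38 and Cyp2c39 92.0% identical and no shared 150-base window. Cyp2c29, an abundant epoxygenase that phenobarbital-like compounds induce, read 13452, 13343, 13756 and 12030 in Con-Veh and 5171, 8296, 8656 and 4682 in Con-DHT. All Con-DHT livers were below all Con-Veh livers, and they fell into a lower pair (replicates 1 and 4) and a higher pair (replicates 2 and 3). Con-Veh livers averaged 13145 ± 764 and Con-DHT livers 6701 ± 2064 (SD, n = 4). On the log2 scale this was -1.02 (SE 0.19, 95% interval -1.45 to -0.60, limma adjusted p = 0.011). Scaled to the spike-ins it was -0.82 with a limma adjusted p of 0.126, again from the fit where p followed the size of the change.

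Cyp2c39, known for hydroxylating retinoic acid, was the least abundant of the 10. It read 130, 158, 134 and 184 in Con-Veh and 18.6, 61.0, 71.4 and 51.1 in Con-DHT, without overlap and with replicate 1 lowest. Con-Veh livers averaged 151 ± 24.95 and Con-DHT livers 50.5 ± 22.8 (SD, n = 4). The log2 change was -1.70 (SE 0.35, 95% interval -2.49 to -0.92, limma adjusted p = 0.0183). The call was lost narrowly without Con-Veh replicate 2 (limma adjusted p = 0.0506) and without Con-Veh replicate 4 (adjusted p = 0.0572).

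Cyp2c38, its closest copy and an epoxygenase, read 1137, 1485, 2176 and 2649 in Con-Veh and 802, 1459, 1648 and 1323 in Con-DHT. The groups overlapped, and this gene varied most among Con-Veh livers, with a coefficient of variation of 36.5%. The means were 1862 ± 680 and 1308 ± 363 (SD, n = 4) and the log2 fold change was -0.48 (SE 0.28, 95% interval -1.10 to 0.14, limma adjusted p = 0.338). The log2 ratio of Cyp2c38 to Cyp2c39 rose in the same libraries from 3.55 ± 0.44 to 4.77 ± 0.39 (SD, n = 4; exact two-sided permutation p = 0.0286).

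Cyp2c44, an epoxygenase also studied in kidney and endothelium, is the most distant member, with 51.0% to 60.3% protein identity to the other 9. It read 5110, 4863, 6266 and 6005 in Con-Veh and 4935, 3292, 3204 and 3327 in Con-DHT. Con-DHT replicates 2 to 4 lay below all Con-Veh livers and replicate 1 lay among them. Con-Veh livers averaged 5561 ± 680 and Con-DHT livers 3690 ± 832 (SD, n = 4). This amounted on the log2 scale to -0.61 (SE 0.14, 95% interval -0.93 to -0.29, limma adjusted p = 0.0321). This is the least secure of the 7 calls: it was lost without Con-Veh replicate 3 or 4 or Con-DHT replicate 2, 3 or 4 (limma adjusted p 0.0737 to 0.0883), without the variance trend (0.0703), with totals that leave out the Mup genes (0.0653), with a replicate block (0.0664) and with spike-in scaling (0.83).

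**Figure D2:**
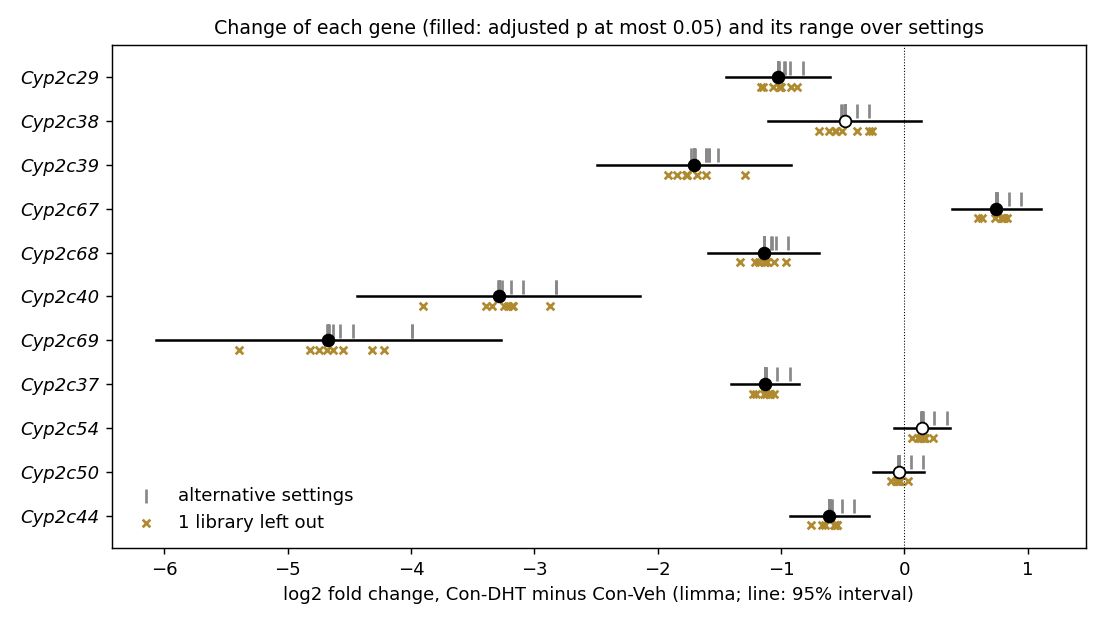
Log2 fold change (Con-DHT minus Con-Veh) of each Cyp2c gene and Cyp2c67 with its 95% interval from limma (circles and lines, filled where the adjusted p was at most 0.05), with values under other settings (ticks) and with 1 library left out (crosses). Cyp2c69 and Cyp2c40 lie farthest to the left at -4.67 and -3.29, and the marks of Cyp2c50 fall on both sides of 0.

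The same genes can be ordered by level per kilobase of transcript. Lengths were those of the longest coding transcripts, 2869 bases for Cyp2c38 and at most 1916 for the other members. Only uniquely mapped reads were counted, and no correction was made for windows shared between copies (29.1% in Cyp2c40 and 22.5% in Cyp2c69). The levels of such copies may therefore be too low, and their places in both groups are uncertain. In Con-Veh the order of levels per kilobase, in normalised reads, was Cyp2c29 (7372 ± 428, SD, n = 4), Cyp2c37 (7162 ± 770), Cyp2c50 (4208 ± 522), Cyp2c69 (3452 ± 766), Cyp2c44 (2902 ± 355), Cyp2c68 (2862 ± 172), Cyp2c54 (1550 ± 239), Cyp2c40 (1279 ± 254), Cyp2c38 (649 ± 237) and Cyp2c39 (83.3 ± 13.7). The ranges of neighbours in this order overlapped for Cyp2c29 and Cyp2c37, for Cyp2c50 and Cyp2c69, for Cyp2c69 and Cyp2c44, for Cyp2c44 and Cyp2c68 and for Cyp2c54 and Cyp2c40, so those places are not separated by the spread between mice.

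In Con-DHT, Cyp2c50 came first at 4052 ± 95.4 normalised reads per kilobase (SD, n = 4), before Cyp2c29 (3758 ± 1158) and Cyp2c37 (3289 ± 516), which it did not exceed beyond the spread. Cyp2c44 (1926 ± 434), Cyp2c54 (1699 ± 50.3) and Cyp2c68 (1355 ± 466) followed, then Cyp2c38 (456 ± 127). Cyp2c69 went from the place 4 of 10 to place 8 (217 ± 259), before Cyp2c40 (181 ± 188) and Cyp2c39 (27.8 ± 12.6). Neighbours were separated without overlap only between Cyp2c37 and Cyp2c44, between Cyp2c68 and Cyp2c38 and between Cyp2c40 and Cyp2c39.

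Summed over the 10 genes, the normalised read counts were 56728, 50987, 63417 and 57265 in Con-Veh and 28528, 31970, 34299 and 29777 in Con-DHT. Every Con-DHT sum lay below every Con-Veh sum. The means were 57099 ± 5081 and 31144 ± 2540 (SD, n = 4), a 1.83-fold difference, and the sum made up 0.372% ± 0.037 of all mouse-gene counts in Con-Veh and 0.216% ± 0.015 in Con-DHT. The make-up of the sum changed as well. Cyp2c50 went from 13.4% ± 1.17 to 23.7% ± 2.00 of it (SD, n = 4) and Cyp2c54 from 4.83% ± 0.36 to 9.77% ± 0.51, while Cyp2c69 went from 9.87% ± 1.403 to 1.17% ± 1.44 and Cyp2c40 from 4.01% ± 0.48 to 1.07% ± 1.15. The shares of Cyp2c29 (21.0% to 26.2% in Con-Veh and 15.7% to 25.95% in Con-DHT) and Cyp2c68 (7.85% to 9.22% and 5.36% to 11.2%) overlapped between groups.

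**Figure D3:**
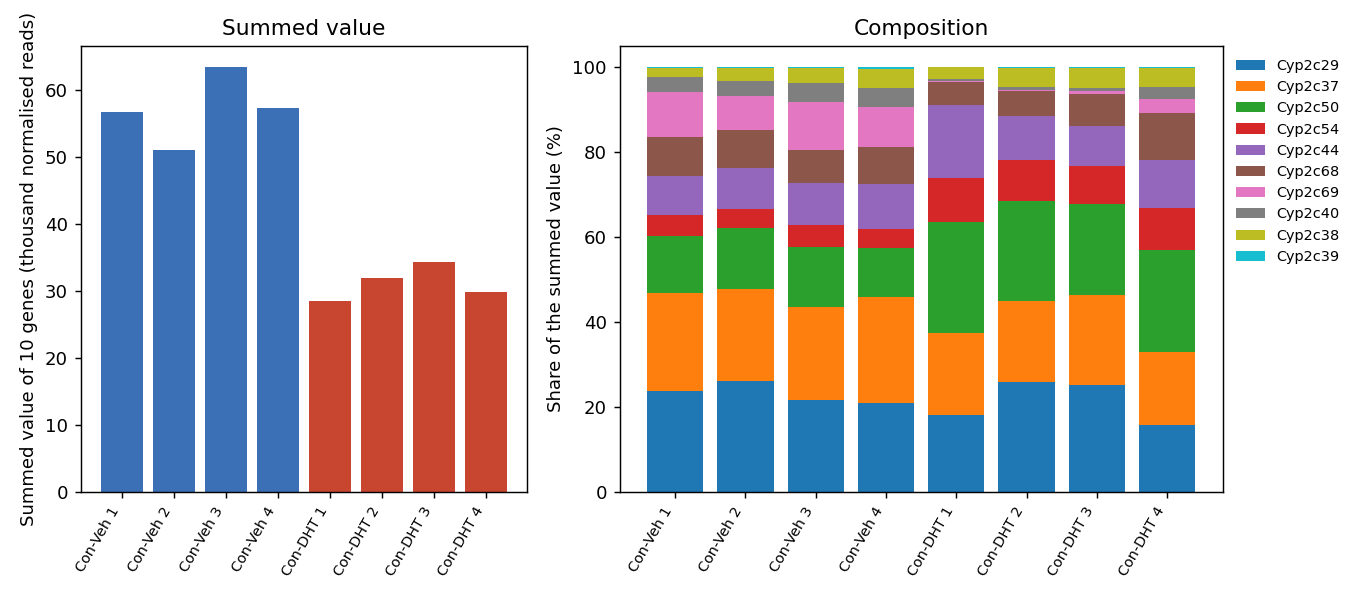
Left, summed normalised read count of the 10 Cyp2c genes in each liver, in kiloreads; right, the percentage of that sum held by each gene, with a colour for each. The 4 Con-DHT sums lie between 28528 and 34299 and the 4 Con-Veh sums between 50987 and 63417, and the share of Cyp2c50 is larger in each Con-DHT liver.

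Con-DHT livers did not share 1 order across the genes. Replicate 4 was the highest of the 4 for Cyp2c40, Cyp2c68 and Cyp2c69 and the lowest for Cyp2c29, Cyp2c37 and Cyp2c50. Replicate 3 was the highest for Cyp2c29, Cyp2c37, Cyp2c38, Cyp2c39 and Cyp2c54. Replicate 1 was the lowest for Cyp2c38, Cyp2c39, Cyp2c40, Cyp2c54, Cyp2c68 and Cyp2c69 and the highest for Cyp2c44. The coefficient of variation among Con-DHT livers ran from 2.36% for Cyp2c50 and 2.96% for Cyp2c54 to 104% for Cyp2c40 and 119% for Cyp2c69, whereas among Con-Veh livers it ran from 5.81% (Cyp2c29) to 36.5% (Cyp2c38). Cux2, a female-predominant liver repressor, read 1001, 563, 562 and 768 in Con-Veh and 30.4, 33.9, 374 and 392 in Con-DHT, without overlap. Its 2 highest Con-DHT livers, replicates 3 and 4, were also the highest for Cyp2c68 and Cyp2c69. For Cyp2c40 the highest were replicates 4 and 2. Cux2 did not pass the test (log2 fold change -2.64, SE 0.80, limma adjusted p = 0.0783), and a link to the Cyp2c levels was not tested.

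**Figure D4:**
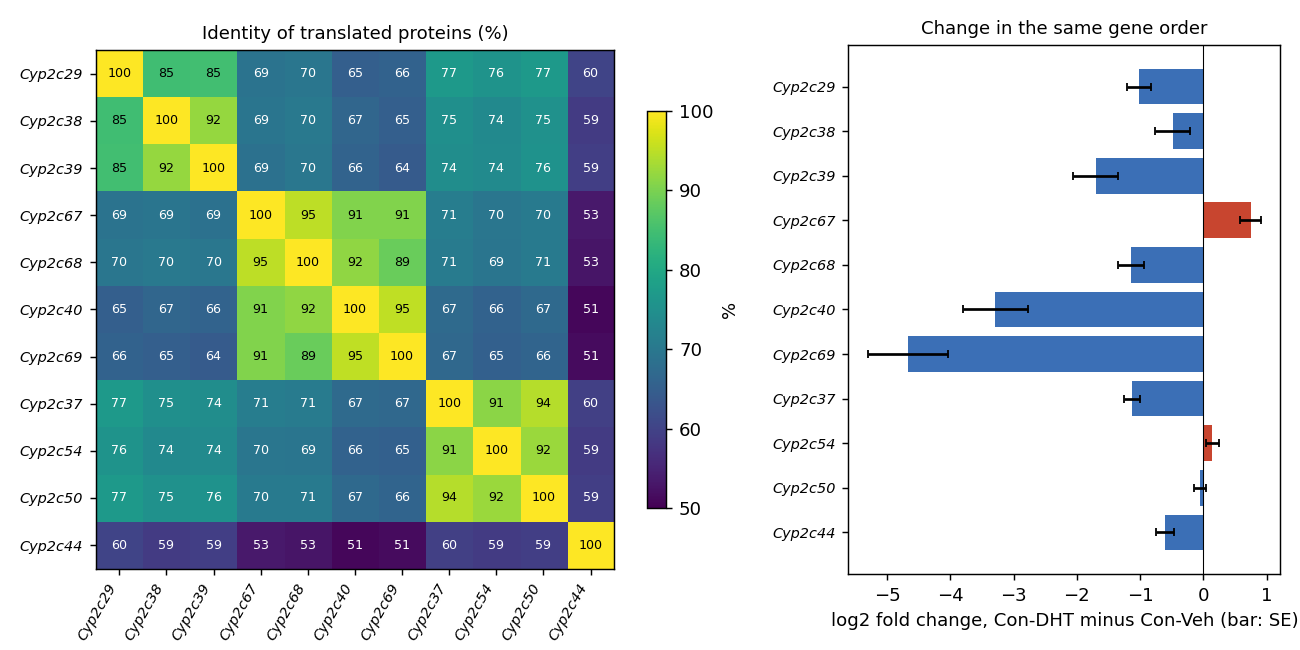
Left, percent identity between the translated proteins of each pair of Cyp2c genes (colour and number); right, the log2 fold change of each gene in the same order with its SE. Cyp2c67 and Cyp2c68, 95.1% identical, changed by 0.75 and -1.14, and Cyp2c37 and Cyp2c50, 94.5% identical, by -1.13 and -0.05.

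The list of regulators held 30 genes for receptors, transcription factors and growth hormone signalling. Of these, 1 rose and 3 fell, beside 4.6% higher and 2.61% lower over all tested genes, with a median log2 fold change of -0.05. Foxa2, a hepatocyte pioneer factor (-0.54), and Nfe2l2, the oxidative stress factor (-0.40), were among those that fell. Bcl6, a repressor of STAT5 targets, rose (0.93, limma adjusted p = 0.0453), although its groups overlapped. Values for CAR (Nr1i3, -0.11), PXR (Nr1i2, -0.09), Hnf4a (-0.23) and Stat5b (-0.24) overlapped between groups and did not pass the test. The list of other CAR and PXR targets had a median of -0.30, and 3 of its 21 genes fell and 1 rose. Cyp3a11, a drug-metabolising P450, went from 26664 ± 6850 to 13365 ± 3748 (SD, n = 4), without overlap (log2 fold change -1.01, limma adjusted p = 0.0276). The bilirubin transferase Ugt1a1 (-0.83) and the organic anion carrier Slco1a4 (-0.87) fell and Aldh1a7 rose (0.85).

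Of the 13 genes for the electron donors and heme synthesis that P450 enzymes need, 0 were called by limma, and their median was -0.06. Over all tested genes 4.6% were called higher, 2.61% lower and 7.21% in either direction, so 0 of 13 lies near that share. Among 33 other genes of eicosanoid and arachidonic acid metabolism, 6 rose and 1 fell, with a median of 0.07. Cyp4a12a, a male-predominant omega-hydroxylase of arachidonic acid, read 2.20, 2.90, 4.99 and 6.09 in Con-Veh and 1539, 942, 195 and 1738 in Con-DHT, without overlap (log2 fold change 7.45, SE 0.60, limma adjusted p = 0.000207). Its copy Cyp4a12b rose by 6.59, and Cyp2u1, another fatty acid hydroxylase, by 2.96. Cyp4a32 (1.19), the desaturase Fads2 (0.64) and the epoxygenase Cyp2j6 (0.37) rose, and the cyclooxygenase Ptgs1 fell (-0.65). Some Con-Veh values of the Cyp4a12 genes were near or under the value of 3 reads, so those fold changes depend on the pseudocount.

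Of 14 genes for retinoic acid formation and clearance in the table, Aldh1a3, which forms it, rose (0.90) and Rdh9 fell (-0.31), with a median of -0.16. The shares over all tested genes were 4.6% higher and 2.61% lower. Of 14 other genes, most of them from the chromosome 19 neighbourhood, 2 were called, both higher, Cyp2c67 among them, and the median was 0.0012. Cyp2c70, the muricholic acid enzyme, read 3622, 5108, 3990 and 2455 in Con-Veh and 2032, 2044, 2443 and 2681 in Con-DHT. Its groups overlapped and it did not pass limma's test (log2 fold change -0.68, SE 0.19, adjusted p = 0.0615), but DESeq2 called it (adjusted p = 0.00479), as did limma without Con-Veh replicate 4 (adjusted p = 0.011).

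Cell type markers were read beside these results, where 4.6% of all tested genes were called higher, 2.61% lower and 7.21% in either direction. Of 14 pericentral hepatocyte genes, the zone where Cyp2c29 and Cyp2c37 are known to be expressed, 0 were called by limma, and their summed counts overlapped between groups (206761 to 239101 in Con-Veh and 202287 to 265464 in Con-DHT). Of 7 hepatocyte genes, 1 fell (Serpinc1, -0.38), and of 12 periportal genes 1 fell (Ctsc, -0.99). Kupffer cell markers were lower in Con-DHT, with 6 of 9 called (Cd5l, Vsig4, C1qa, C1qb, C1qc and Clec4f) and summed counts of 7975 to 9764 in Con-Veh and 5367 to 7140 in Con-DHT. For 7 endothelial markers 2 fell (Lyve1 and Stab2), with sums of 4395 to 4823 and 3347 to 4045. Their part in the lower Cyp2c levels was not tested. None of 7 stellate, 5 cholangiocyte, 4 adipocyte or 2 leukocyte markers in the table was called by limma. The leukocyte sums were nevertheless lower, at 182 to 262 in Con-Veh and 116 to 173 in Con-DHT, with a median log2 fold change of -0.70. Sums of the stellate, cholangiocyte and adipocyte markers overlapped between groups. Of 5 kidney, islet and exocrine pancreas markers, only the elastase Cela1 was in the table, and it rose (0.94).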

How the data were processed

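Liver RNA of 8 mice was sequenced. The labels name Trimmomatic, STAR, featureCounts from Subread and DESeq2 as tools and GRCm39 as the build. The study's methods describe trimming, alignment and gene counting with these tools, and the strand setting of the counting is not given in the sources used here. The authors deposited normalised read counts (a signal unit: reads divided by a size factor) for 14317 mouse genes and 54 spike-in transcripts. Every deposited value was a whole read, within 0.01 read, once multiplied by the size factor, and reads on mouse genes per library ran from 13123962 to 17815944. Libraries of a group differed beyond sampling noise (chi-square per degree of freedom 19.1 to 61.2 over 12 pairs). Floors in reads cover counting error only.

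Genes with a mean of at least 10 were tested with limma 3.58.1 (R 4.3.3) on log2(value + 1), with a variance trend and Benjamini-Hochberg adjustment over 14312 genes. Fold changes are on that scale. Alternatives were pseudocounts of 0.1 and 5, no filter and a mean of at least 50, scaling to totals without 18 Mup genes, to upper quartiles and to spike-ins, no trend, a replicate block, edgeR 4.0.16 (quasi-likelihood) and DESeq2 1.42.0 on recovered reads, sums over close copies and leaving out each library. Pair ratios were tested by exact two-sided permutation over 70 arrangements. Identity was computed from longest coding transcripts of GENCODE M21 (GRCm38) with biopython 1.88. Promoters were taken from RefSeq (GRCm38.p6). Scripts were tested on simulated data. Named genes were all members, the called genes of each listed group, and stated regulators. Some genes that this rule names are not reported here. Members and lists were chosen with earlier results of these data known.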

Additional observations from a re-analysis of the deposited data

Results flagged for a closer look

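For 3 of the 26 groups of 4 livers examined (13 genes or sums in either group), 1 liver stood apart from the others by more than Dixon's 95% critical value. Chance alone gives about 1 such group in 20. Cyp2c40 read 830 in Con-DHT replicate 4, against 97.1 to 196 in the other Con-DHT livers (gap over range 0.865). Cyp2c44 read 4935 in Con-DHT replicate 1, against 3204 to 3327 (gap over range 0.929). Cyp2c67 read 1163 in Con-Veh replicate 1, against 1709 to 1803 (gap over range 0.854).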

How the results depend on the processing

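The 7 calls and their direction also came from edgeR and DESeq2. Under each other setting 6 to 7 members were called lower, except 4 with spike-in scaling (Cyp2c39, Cyp2c40, Cyp2c68 and Cyp2c69). In the spike-in fit the adjusted p of the Cyp2c genes followed the size of the fold change, not each gene's own spread. Leaving out a library gave 5 to 7 members. Spike-in scaling moved the median log2 fold change of all genes from -0.0081 to 0.188, with spike-ins taking 1.68% to 3.61% of reads, and the log2 ratio of the summed members from -0.87 to -0.74 (-0.93 to -0.82 with a library left out). Cyp2c50 reversed to 0.0516 with totals without the Mup genes, 0.15 with spike-ins and 0.0319 without Con-Veh replicate 3 (-0.1062 to 0.0319 with a library left out). Over all genes, 1032 were called, against 648 at a mean of at least 50 (10725 tested), 637 with spike-ins and 1569 with DESeq2. With a library left out there were 633 to 905, the lowest being 633 without Con-Veh replicate 4, 648 without Con-Veh replicate 2, 659 without Con-DHT replicate 1 and 662 without Con-DHT replicate 2. Of the calls, 63.8% were higher, and 83.9% with totals without the Mup genes and 88.2% with spike-ins. The causes were not tested. Same-numbered libraries did not deviate together (correlations -0.186 to -0.006), and a replicate block gave 700 genes and 6 members. Summed over close copies the log2 fold change was -1.39 for Cyp2c40, Cyp2c67, Cyp2c68 and Cyp2c69, -0.52 for Cyp2c37, Cyp2c50 and Cyp2c54 and -0.55 for Cyp2c38 and Cyp2c39. All 9 pair ratios kept their direction with other pseudocounts and without any 1 library.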

Other observations

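Across the 8 libraries, genes outside the subfamily whose log2 levels were most like each called member were sought among 10725 genes by Pearson's r. Among the closest 2 of each were Tcn2 (r = 0.988) for Cyp2c29, Rdh16f2 (0.990) and Ces1c (0.989) for Cyp2c37, and Slc17a1 (0.971) and Gm10069 (0.970) for Cyp2c39. For Cyp2c40 they were Dusp23 (0.978) and Pabpc4 (0.971), for Cyp2c44 they included Plcl2 (0.959), for Cyp2c68 they were Snhg8 (0.981) and Rps27 (0.979), and for Cyp2c69 Rpl7a (0.978) and Ifngr1 (0.976). The 8 points come from 2 treatment groups, so r takes in the difference between the groups, and the points share each library's depth and scaling.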
